A study of Mus musculus with 12 samples.

Results

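The Toll-like receptors counted on an nCounter immune panel in microglia of the mouse hippocampus were Tlr1, Tlr2, Tlr3, Tlr4, Tlr5, Tlr8 and Tlr9, which are all the endogenous genes of the panel table whose symbol is Tlr and a digit, 7 of 545. The tested animals were 6 control male Balbc mice at postnatal day 28 (P28), set against 6 control male Balbc mice at postnatal day 14 (P14). Each animal came from a litter of its own, and all were raised under control conditions, in a study of early life stress whose stressed animals were not analysed here. Microglia, which are macrophages that live in brain tissue, were taken from the hippocampus on a Percoll gradient followed by flow sorting, with a gate that the labels do not describe. The comparison asks how these receptors differ between the ages while microglia mature. The method captures each target RNA with a fluorescent barcode and counts barcodes, and levels here are barcode counts divided by a factor from 6 reference genes (scaled counts). Probes capture with unequal efficiency, and levels of different receptors are therefore not set against each other.

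Toll-like receptors are membrane proteins of innate immune cells that recognise conserved microbial molecules and some molecules released by damaged cells. The surface receptors bind lipids and proteins outside the cell: Tlr2 with Tlr1 binds bacterial lipopeptides, Tlr4 binds lipopolysaccharide together with Ly96 and Cd14, and Tlr5 binds flagellin. The endosomal receptors bind nucleic acids inside the cell: Tlr3 binds double-stranded RNA, Tlr8 belongs to the sensors of single-stranded RNA, and Tlr9 binds DNA with unmethylated CpG. Tlr3 signals through the adaptor Ticam1 and most others through Myd88, and microglia are the main carriers of these receptors in the brain. Of the 7 receptors, 4 were of the surface class (Tlr1, Tlr2, Tlr4 and Tlr5) and 3 of the endosomal class (Tlr3, Tlr8 and Tlr9). Other members of the family, Tlr6 and Tlr7 among them, were not analysed here. Tlr1 and Tlr6 are close paralogs, and whether the Tlr1 probe also captures Tlr6 RNA cannot be checked without the probe sequence.

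Total counts of the endogenous genes were between 1025196 and 1534665 in P28 samples and between 356398 and 1316430 in P14 samples. P14 samples 4 and 5 stood apart with 772723 and 356398 counts, while the other P14 samples had at least 1137106. The fold changes and ratios of the receptors are therefore given with and without that pair. Results of pathway genes named here are given so where that changes the call. The background threshold of a lane, set 2 SD over the average negative probe, was 12.9 to 33.4 counts. The geometric mean of the 6 positive-control probes was 1069 to 1235 at P28 and 542 to 651 at P14, with no overlap. Lane efficiency, as read from these probes, thus differed along with age. A scale of positive controls alone divides by this lane difference and does not adjust for the amount of RNA in a sample. Whether scaling to reference genes removes all of that lane difference from each gene was not tested. The 7 markers fixed for microglia were above background in all 12 samples and summed to 204889 to 242344 scaled counts at P28 and 197066 to 229103 at P14. Within that list, Trem2 rose (log2 fold change 0.71, adjusted p = 0.000687) and Emr1 fell (-0.72, adjusted p = 1.02e-05 by edgeR). The markers S100a9 (neutrophils), Pax5 (B cells) and Cd3e (T cells) were under background in all samples. Other B cell markers were above it, Cd79b in 12, Cd79a in 10 and Ms4a1 in 7 of 12 samples, as were the T cell markers Cd4 in 4, Cd3d in 3 and Cd8a in 2. Among the markers of neutrophils and monocytes, Ltf was above it in 7 samples and S100a8 and Camp in 2 each. Less RNA per cell and fewer cells of a kind cannot be told apart in such bulk samples. Of the 7 markers of neutrophils and monocytes, Csf3r and Ccr2 were above background in every sample. Cxcr2 passed as lower at P28, where it was above background in 0 of 6 samples, against 6 of 6 at P14, so no fold is given. The list summed to 4361 to 8487 at P28 and 3194 to 8810 at P14.

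Relative to the 6 reference genes, microglia at P28 carried more Tlr3 and Tlr9 RNA than microglia at P14, while no surface receptor passed the test; with positive controls alone neither was higher. Of the 6 receptors with enough signal for a test, 2 rose and 0 fell, both of them endosomal (2 of 2), against 0 of 4 on the surface. The count of 2 was 1 in 9 of the 12 fits that each lacked a single animal, in which Tlr9 did not pass, and it differed from 2 in 19 of all 28 alternatives. Over all 366 genes tested with edgeR's quasi-likelihood test at a false discovery rate of 0.05, 30.6% passed, 16.7% as higher and 13.9% as lower at P28. That split of 61 higher and 51 lower genes moved with the scaling, to 93 and 36 with the authors' factors, 89 and 42 with all 14 reference genes, 50 and 74 without Polr1b, 51 and 96 with total counts and 8 and 128 with positive controls alone. With 2 and 4 tested members, counts of the classes carry little weight on their own, and the values per receptor follow.

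**Figure D1:**
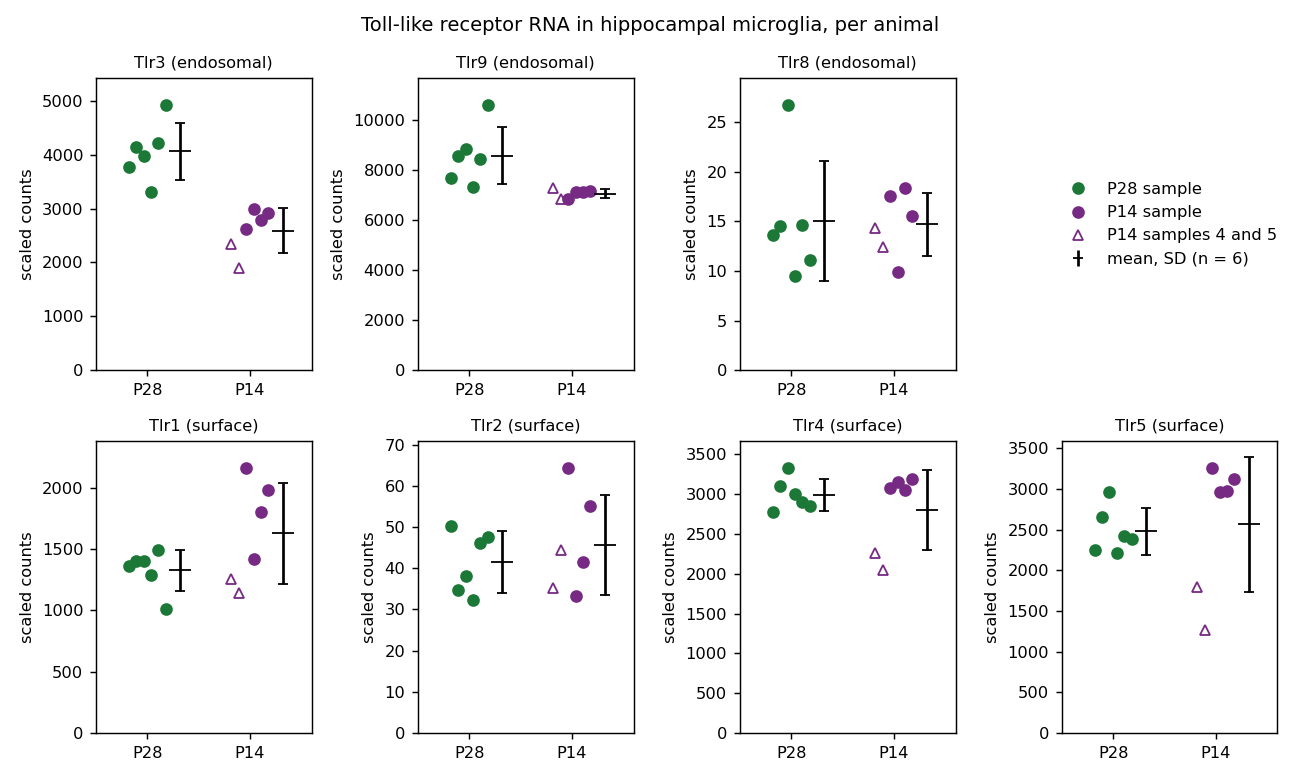
Scaled counts (linear axes from 0) of the 7 receptors in each animal, P28 in green and P14 in purple, with the mean and SD of 6 animals. In Tlr3 and Tlr9 all P28 points lie above all P14 points, and in Tlr4 and Tlr5 the open triangles of P14 samples 4 and 5 lie below the other P14 points.

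Tlr3, the sensor of double-stranded RNA, had 3315 scaled counts in the lowest, 4064 in the median and 4922 in the highest P28 sample, against 1897, 2703 and 2995 in the lowest, median and highest P14 sample. The ages did not overlap, and the lowest P14 values were those of samples 5 (1897) and 4 (2333). Tlr3 averaged 4059.9 ± 533 scaled counts at P28 and 2592 ± 415 at P14 (SD, n = 6 each). It rose by a log2 fold change of 0.65 ± 0.13 (SE), a 1.57-fold rise with a 95% interval of 1.29 to 1.89, at an adjusted p of 0.00148 by edgeR's quasi-likelihood test. Among the 366 genes it had rank 38 from the largest rise. Without P14 samples 4 and 5 the log2 fold change was 0.52 (adjusted p = 0.0018). With positive controls as the sole scale the sign turned, to a log2 fold change of -0.15 (adjusted p = 0.703), on a scale where the median of all genes was -0.74. Relative to that median, Tlr3 stood at 0.59 with positive controls and at 0.64 with the 6 reference genes. The authors' deposited table gives a P28 over P14 fold of 1.71 for Tlr3.

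Tlr9, the receptor for CpG DNA, had 7320.2, 8518 and 10621 scaled counts in the lowest, median and highest P28 sample, against 6853, 7125 and 7284 in the lowest, median and highest P14 sample. The ages did not overlap, but the lowest P28 value, that of sample 119, lay close above the highest P14 value, that of sample 4. On this scale the P14 animals lay close together, with a coefficient of variation of 2.45%, against 13.4% at P28, where sample 138 was the highest. That narrow spread depended on the scale, since with TMM scaling P14 ran from 6102 to 8716 and P28 from 7688 to 10013. With the 6 reference genes the mean was 8588 ± 1149 scaled counts at P28 and 7068 ± 173 at P14 (SD, n = 6 each). Tlr9 rose by a log2 fold change of 0.28 ± 0.10 (SE), 1.21-fold with a 95% interval of 1.05 to 1.40, at an adjusted p of 0.0391 by the same test. This call was near the threshold. It was lost when any 1 sample other than P14 sample 5 and P28 samples 118 and 119 was left out, and across the 12 such fits the adjusted p ran from 0.0218 to 0.0762. It was also lost with TMM scaling (0.21, adjusted p = 0.127) and without Polr1b among the reference genes (0.16, adjusted p = 0.241). With positive controls alone the sign turned, to -0.45. The authors' deposited table gives a fold of 1.32 for Tlr9. Non-overlap between the ages was found for Tlr3 in 7 of 8 scalings and for Tlr9 in 2 of 8, while it held for 20.8% of the 366 genes under the 6 reference genes, 12.8% as higher at P28.

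Because Tlr3 and Tlr9 were the receptors that rose, the 250 bases before their RefSeq transcription starts are shown here (GRCm38.p6, 5′ to 3′ on the strand of the gene). Tlr3 is from chr8:45410381-45410630 on the minus strand and Tlr9 from chr9:106222348-106222597 on the plus strand. Capitals mark matches to the motifs searched.
Tlr3: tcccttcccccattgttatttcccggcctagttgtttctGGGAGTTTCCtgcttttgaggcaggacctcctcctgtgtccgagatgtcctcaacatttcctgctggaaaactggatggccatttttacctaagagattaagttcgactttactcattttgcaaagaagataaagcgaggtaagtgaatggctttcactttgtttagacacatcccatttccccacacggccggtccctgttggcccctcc
Tlr9: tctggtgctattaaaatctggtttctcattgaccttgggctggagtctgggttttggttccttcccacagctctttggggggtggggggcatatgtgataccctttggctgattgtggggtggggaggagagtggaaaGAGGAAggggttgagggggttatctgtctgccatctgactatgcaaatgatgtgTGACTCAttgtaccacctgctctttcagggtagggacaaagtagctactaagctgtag
The motifs were the PU.1 core GAGGAA, the AP-1 site TGANTCA, the interferon-stimulated response element (GAAA, any 2 bases, GAAA) and the NF-kB site (GGGA, any base, TTTCC), each searched on both strands, and no match overlapped another. The Tlr3 window held 1 match, to the NF-kB letters, beginning 211 bases before the start. The Tlr9 window held 2 matches, to the PU.1 core 112 bases and to the AP-1 site 58 bases before the start. Over all 32851 windows of this length in the RefSeq table, 0.356% held the NF-kB letters, 23.3% the PU.1 core, 6.75% the AP-1 letters and 2.98% the interferon-stimulated letters. The windows of Tlr2 and Tlr5 held none of these letters, and among the other windows the PU.1 core was in 1 of the 2 windows of Tlr1 and in that of Tlr8. Windows were at hand for 6 of the 7 receptors, all but Tlr4. A match to such letters is a description and not a binding site.

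Tlr8, the remaining endosomal receptor, stayed at background. It exceeded its lane's threshold in 1 of 6 samples at P28 (28 raw counts in sample 135) and in 0 of 6 at P14, where raw counts were 5 to 21. It was therefore not tested, and no fold is given.

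The surface receptors passed the test in neither direction when all 12 samples were used. Tlr1, the partner of Tlr2 for lipopeptides, had 1012, 1384 and 1496 scaled counts in the lowest, median and highest P28 sample, against 1145, 1613 and 2166 in the lowest, median and highest P14 sample. The ages overlapped, with 3 P14 samples above every P28 sample and samples 5 and 4 at the low end of P14. The log2 fold change was -0.30 ± 0.16 (SE; 95% interval -0.64 to 0.052, adjusted p = 0.180 by edgeR). Without P14 samples 4 and 5 Tlr1 passed as lower at P28 (-0.47, adjusted p = 0.0112), and it passed as lower with TMM scaling too (-0.32, adjusted p = 0.0482).

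Tlr2, the lipopeptide receptor that pairs with Tlr1 or Tlr6, was counted close to background. Its raw counts were 31 to 70 at P28 and 18 to 77 at P14, above the threshold in all 12 samples but only 1.21 to 2.64 times as high as it. It had 32.3, 42.1 and 50.3 scaled counts in the lowest, median and highest P28 sample, against 33.3, 43.0 and 64.5 at P14, and the ages overlapped. The log2 fold change was -0.14 ± 0.18 (SE; 95% interval -0.54 to 0.25, adjusted p = 0.603 by edgeR), so these counts do not exclude a change within that interval. The log2 fold change was -0.23 without P14 samples 4 and 5 (adjusted p = 0.379).

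Tlr4, the lipopolysaccharide receptor, had 2772, 2954 and 3334 scaled counts in the lowest, median and highest P28 sample, against 2048, 3066 and 3187 in the lowest, median and highest P14 sample. P14 samples 5 (2048) and 4 (2263) were the lowest of all 12, while the other P14 samples lay within the P28 range, between 3048 and 3187. The log2 fold change was 0.10 ± 0.12 (SE; 95% interval -0.17 to 0.36, adjusted p = 0.603 by edgeR), and -0.059 without that pair (adjusted p = 0.551). The authors' deposited table gives Tlr4 a fold of 1.17 with an unadjusted p of 0.0414.

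Tlr5, the flagellin receptor, had 2211, 2401 and 2963 scaled counts in the lowest, median and highest P28 sample, against 1261, 2972 and 3264 in the lowest, median and highest P14 sample. P14 samples 5 (1261) and 4 (1794) lay below every P28 sample, and the other 4 P14 samples lay above every P28 sample. That separation was narrow, with 2963.1 in the highest P28 sample and 2963.9 in the lowest of those 4. The log2 fold change over all samples was -0.051 ± 0.20 (SE; 95% interval -0.48 to 0.38, adjusted p = 0.876 by edgeR). Without P14 samples 4 and 5, Tlr5 averaged 2479.7 ± 285 scaled counts at P28 (SD, n = 6) and 3083 ± 141 at P14 (SD, n = 4), and it passed as lower at P28 (-0.31, adjusted p = 0.0173). In that comparison 41.3% of 368 genes passed, 23.1% as lower, and the receptors passing were Tlr3 and Tlr9 as higher and Tlr1 and Tlr5 as lower. The part of depth in the low values of samples 4 and 5 was not tested.

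**Figure D2:**
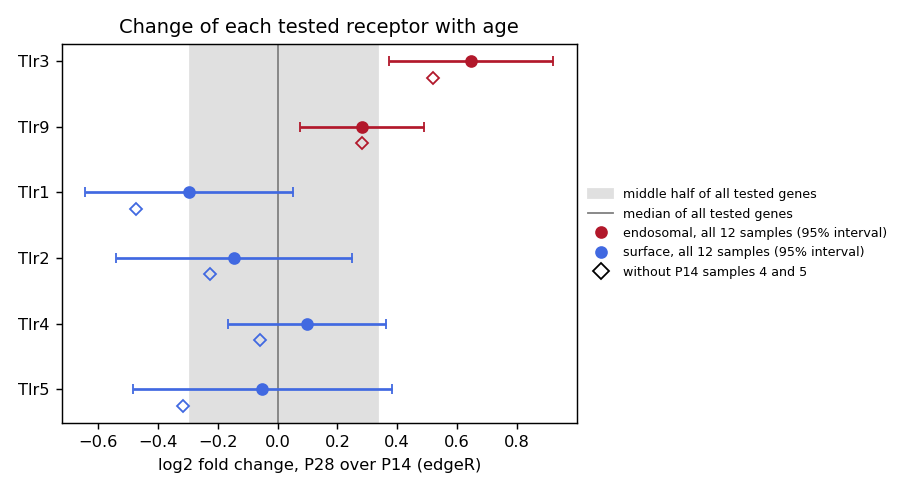
Log2 fold change, P28 over P14, of the 6 tested receptors with 95% intervals (endosomal red, surface blue), open diamonds without P14 samples 4 and 5, and a grey band for the middle 50% of the 366 genes (-0.29 to 0.34). Tlr3 lies right of the band and Tlr9 within it, and the diamonds of Tlr1 and Tlr5 lie at -0.47 and -0.31.

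Set side by side, the endosomal receptors moved up and the surface receptors stood near or below the panel as a whole. The median log2 fold change was 0.46 for the 2 tested endosomal receptors (0.28 and 0.65), -0.097 for the 4 surface receptors (-0.30 to 0.097) and 0.0026 for all 366 genes. Without P14 samples 4 and 5 these medians were 0.40, -0.27 and -0.074. The difference of the class medians, endosomal minus surface, was 0.56 and lay between 0.45 and 0.67 in all 28 alternatives run. In each of the 29 settings, the one reported included, Tlr3 had the highest and Tlr9 the next highest log2 fold change of the 6 receptors, and Tlr1 had the lowest. This order compares receptors within the same samples and is not a test of the classes. A change of scaling shifts all receptors nearly alike, and a filter or a stricter threshold hardly moves their fold changes. Such settings could therefore hardly alter the difference or the order. Over the 12 fits that each lacked a single animal, the difference was 0.45 to 0.62.

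**Figure D3:**
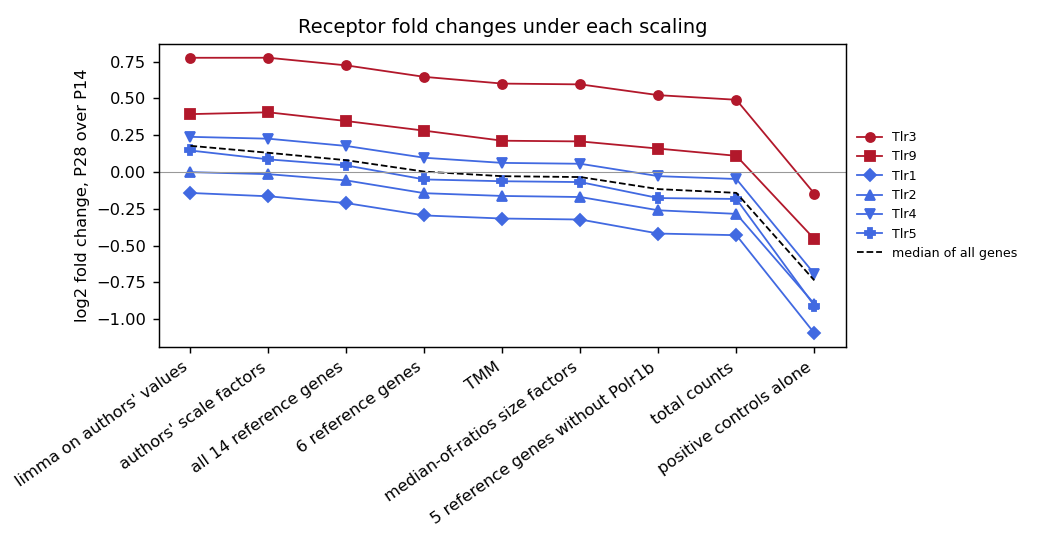
Log2 fold change, P28 over P14, of each tested receptor under 9 ways of scaling, endosomal in red and surface in blue, with the median of all genes dashed. The lines shift together, and Tlr3 lies between 0.59 and 0.65 above the dashed line in all of them.

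A ratio of 2 receptors within a sample does not depend on the scaling, and such ratios were compared between the ages. The pairs listed for a test were 6, of which 2 could be tested. The others each held Tlr6 or Tlr7, which are not among the receptors counted here. The pair of Tlr3 and Tlr4 was listed with the rise of Tlr3 already known. The log2 ratio of Tlr3 over Tlr4 was 0.43 ± 0.23 at P28 (0.14 to 0.79) and -0.11 ± 0.092 at P14 (-0.24 to 0.044; SD, n = 6 each). The ages did not overlap, and the mean ratio was higher by 0.54 at P28 (exact two-sided permutation test, p = 0.00216, the smallest that 12 samples allow, and 0.00433 adjusted over both pairs). It was 0.57 without P14 samples 4 and 5. Because the rise of Tlr3 prompted this pair, the p is no support apart from that rise. For the lipopeptide pair, the log2 ratio of Tlr1 over Tlr2 was 5.01 ± 0.36 at P28 and 5.16 ± 0.28 at P14 (SD, n = 6 each), and the difference of -0.15 did not pass (exact two-sided permutation test, p = 0.446, adjusted p = 0.446). That difference was -0.27 without P14 samples 4 and 5 (adjusted p = 0.219 by the same test). These levels reflect probe efficiency as well as RNA, so only their change is read.

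Over the 8 ratios of a tested endosomal receptor to a surface receptor, all 8 were higher on average at P28, by 0.15 (Tlr9 over Tlr4) to 0.92 (Tlr3 over Tlr1). The ages did not overlap in 2 of the 8, Tlr3 over Tlr1 and Tlr3 over Tlr4, and in 0 of the 6 ratios between surface receptors. Over all 66795 pairs of tested genes, 21.7% had no overlap, so 2 of 8 is near the share of the panel. Without P14 samples 4 and 5 the count was 6 of 8 between the classes and 1 of 6 within the surface class, where 32.1% of all 66795 pairs had no overlap. The 8 ratios share 6 receptors and are not independent of each other. Tlr3 also moved relative to Tlr9: the log2 ratio was -1.08 ± 0.063 at P28 and -1.46 ± 0.23 at P14 (SD, n = 6 each), without overlap. The mean ratio was higher by 0.38 at P28, and by 0.24 without P14 samples 4 and 5, again without overlap.

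**Figure D4:**
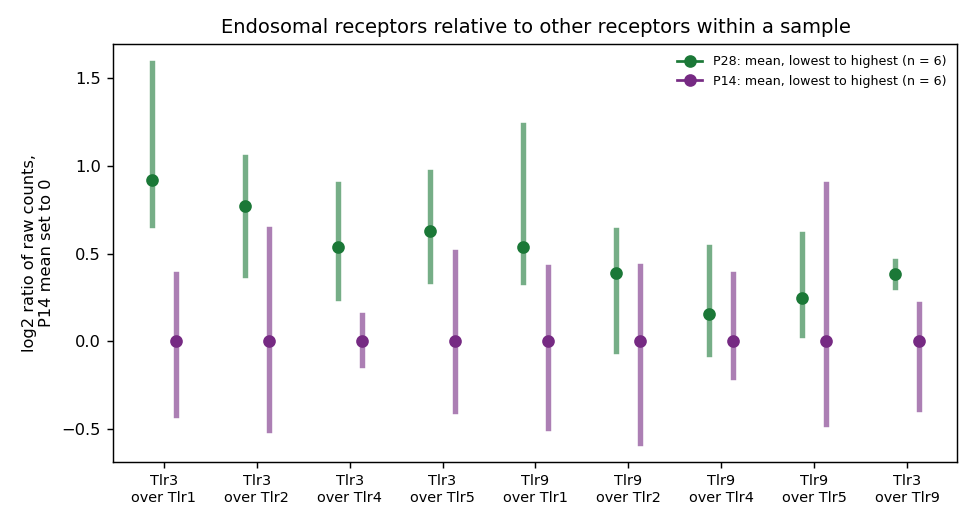
Log2 ratios of raw counts of endosomal over surface receptors and of Tlr3 over Tlr9, with the P14 mean of each ratio set to 0. Points are means and bars run from the lowest to the highest of 6 animals, P28 in green left of P14 in purple, and the bars are apart for Tlr3 over Tlr1, Tlr3 over Tlr4 and Tlr3 over Tlr9.

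The genes that act with these receptors passed the test about as often as the panel as a whole. Of 36 genes listed for the pathway, 26 were on the panel and all 26 were tested, of which 4 rose, 3 fell and 19 did not pass, against 16.7% and 13.9% of all genes. Leaving out P14 samples 4 and 5 gave 3 that rose and 9 that fell, in a comparison in which 18.2% of 368 genes rose and 23.1% fell. Among co-receptors, Ly96, which presents lipopolysaccharide to Tlr4, fell to 60.1 ± 14.9 scaled counts at P28, against 86.8 ± 18.1 at P14 (SD, n = 6 each; log2 fold change -0.53 ± 0.19, adjusted p = 0.0463 by edgeR). This call was lost in 12 of 28 alternatives, 7 of them fits that each lacked a single animal (16, 61 or 81 of P14, and 119, 134, 135 or 138 of P28), over which its adjusted p reached 0.104. Cd14, which hands lipopolysaccharide to Tlr4, did not pass (0.10 ± 0.18), nor did the lipid receptor Cd36 (0.20 ± 0.17). Neither adaptor passed, Myd88 at -0.31 ± 0.15 (adjusted p = 0.131) and Tirap at 0.093 ± 0.17.

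Of 10 kinases and ligases, 1 rose. Irak2, a kinase of the Myd88 complex, had 8743 ± 1003 scaled counts at P28 and 6228 ± 991 at P14 (SD, n = 6 each; log2 fold change 0.49 ± 0.12, adjusted p = 0.0081 by edgeR), without overlap between the ages. Irak1 (0.11 ± 0.19), Irak4 (0.13 ± 0.15) and the ubiquitin ligase Traf6 (0.28 ± 0.21) did not pass. Of 5 brakes, Irak3, a kinase-like inhibitor of the Myd88 complex, rose (0.56 ± 0.14, adjusted p = 0.0055) and Sigirr, a decoy-like receptor that dampens these signals, fell (-0.91 ± 0.20, adjusted p = 0.0033). Irak3 had 71.8 to 97.9 scaled counts at P28 and 39.6 to 65.6 at P14, and Sigirr 16.8 to 38.8 at P28 and 43.0 to 72.3 at P14, neither with overlap. Sigirr lay near background at P28, with a mean of 30.0 scaled counts where Tlr2 had 41.5, so the size of its fall is uncertain. With negative probes subtracted its log2 fold change was -1.45 (adjusted p = 0.0135 by limma). Irak3 was also low at P14, with a mean of 54.7 scaled counts. Its log2 fold change was 0.75 with those probes subtracted (adjusted p = 0.0154 by limma), so the size of its rise is uncertain too. Tnfaip3, a deubiquitinase that limits NF-kB, did not pass over all samples (-0.48 ± 0.21, adjusted p = 0.0923) and fell without P14 samples 4 and 5 (-0.73, adjusted p = 0.000853). In that comparison 4 of the 5 brakes fell, namely Sigirr, Tollip, Tnfaip3 and Socs1, and Irak3 rose (0.46, adjusted p = 0.012).

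Of 5 transcription factors at the end of the pathway, the NF-kB subunit Rela rose (0.47 ± 0.15, adjusted p = 0.0224 by edgeR) and the subunit Nfkb1 fell (-0.68 ± 0.18, adjusted p = 0.0082). The call of Rela was lost without P14 samples 4 and 5 (0.36, adjusted p = 0.0623) and without Polr1b (0.35, adjusted p = 0.0888). Irf5, which Myd88-dependent receptors activate, had a log2 fold change of 0.40 ± 0.17 (adjusted p = 0.0865), and Irf3, which Tlr3 activates through Ticam1, -0.084 ± 0.24 (adjusted p = 0.822). Irf3 passed as lower at P28 when P14 samples 4 and 5 were left out (-0.39, adjusted p = 0.00676), and Irf5 was then at 0.22 (adjusted p = 0.218). Of the 7 genes listed for the trafficking and processing of endosomal receptors, only the cathepsin Ctss was on the panel, a protease that can take part in cleaving these receptors in the endosome. Ctss had 84011 to 101014 scaled counts at P28 and 34311 to 45615 at P14, and rose by a log2 fold change of 1.18 ± 0.10 (adjusted p = 5.4e-07 by edgeR). With positive controls alone Ctss did not pass (0.42, adjusted p = 0.268), and the log2 fold changes of Irak2, Irak3 and Rela were -0.31, -0.20 and -0.32.

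**Figure D5:**
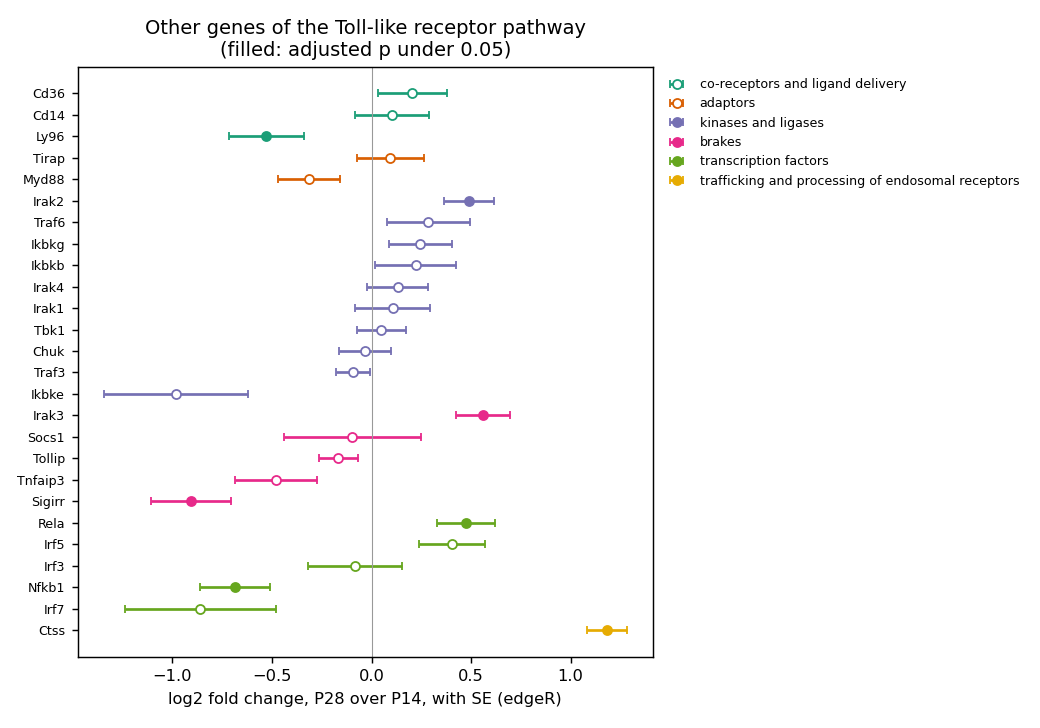
Log2 fold change, P28 over P14, with SE, of 26 other genes of the pathway by role, filled where the adjusted p was under 0.05. The filled points to the right of 0 are Irak2, Irak3, Rela and Ctss, and those to the left are Ly96, Sigirr and Nfkb1.

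The genes whose pattern over the 12 samples was most like that of each receptor were picked by Pearson's r of log2 scaled counts, as a description without a test. For Tlr3 these were Irak3 (r = 0.95, Spearman's rho = 0.96) and the interleukin 7 receptor gene Il7r (r = 0.95, rho = 0.90), each with r = 0.89 without P14 samples 4 and 5. For Tlr9 they were the receptor gene Notch1 (r = 0.96, rho = 0.90) and the chemerin receptor gene Cmklr1 (r = 0.95, rho = 0.87), with r = 0.97 and 0.96 when P14 samples 4 and 5 were left out. Tlr1 was most like Tollip (r = 0.94, rho = 0.80), an inhibitor of these receptors, and the kinase gene Jak3 (r = 0.93, rho = 0.91). Tlr2 was most like the transcription factor gene Cebpb (r = 0.85, rho = 0.90) and the kinase gene Prkcd (r = 0.78, rho = 0.80). Tlr4 was most like Ifnar1 (r = 0.96, rho = 0.82), a chain of the type I interferon receptor, and Cd27 (r = 0.95, rho = 0.62), which fell to 0.70 and 0.53 without P14 samples 4 and 5. Tlr5 was most like Abcf1 (r = 0.96, rho = 0.94) and the platelet-activating factor receptor gene Ptafr (r = 0.96, rho = 0.95). All genes of a sample share its scale factor, its depth and its age.

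Markers of other cells were counted beside these results. The 4 B cell markers reported here summed to 222 to 334 scaled counts at P28 and 379.6 to 605 at P14, without overlap. Of the 3 tested B cell markers, Cd79b fell (log2 fold change -1.20, mean 184 scaled counts at P28 and 422 at P14), Cd79a rose (0.76, mean 36.5 at P28 and 20.7 at P14) and Ms4a1 did not pass (0.14, adjusted p = 0.643 by edgeR). The 4 markers of endothelial and mural cells summed to 1879 to 2959 at P28 and 2109.9 to 3362 at P14, the highest being P14 sample 4, with Cdh5 lower and Pdgfrb higher at P28. The 4 T cell markers, none tested, summed to 52.6 to 81.1 at P28 and 54.9 to 116 at P14. Of the 3 markers of neurons and oligodendrocytes, Mbp and App rose. Cx3cl1 passed as lower at P28, where it was above background in 0 of 6 samples, against 5 of 6 at P14, so no fold is given. The 3 markers summed to 6652 to 10139 at P28 and 4261 to 6967 at P14. App is also expressed outside neurons. The part of these cells in the receptor levels was not tested.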

How the data were processed

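The nCounter panel was run on RNA of sorted microglia, from 2 ng of RNA with 5 rounds of PCR, per the labels' protocols. The deposited raw table holds whole counts per probe, with no scaling by the authors. The score table deposited beside it holds counts that the authors scaled to positive controls and reference genes, per the labels. Its ratio column, the fold of the P28 mean over the P14 mean, and its p-value column are the authors' own, per the file headers. No counting software is named in the labels. Since PCR copies of a molecule are not independent, counting error alone understates a count's error.

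A gene was tested when above the mean plus 2 SD of its lane's negative probes in at least 40% of the 12 samples (366 of 545). Raw counts went into glmQLFit and glmQLFTest of edgeR 4.0.16 under R 4.3.3, with the geometric mean of Alas1, Gapdh, Oaz1, Polr1b, Sdha and Tbp as offset. Age was the sole covariate, and p was adjusted (Benjamini-Hochberg) over the 366 genes. Ratios were compared with exact permutation tests over 924 splits (scipy 1.17.1). Alternatives were DESeq2 1.42.0, limma 3.58.1, other scalings, filters and thresholds, and samples left out. In a simulation of the 366 genes, the edgeR test called 74 of 100 genes set to differ 1.5-fold, 96 of 100 set to differ 2-fold and 1 of 166 left alone. The simulated counts were drawn and fitted with the same scale factors, so these figures hold no error of scaling. Named genes are all the receptors, the genes of the pathway list that passed, and for each tested receptor the 2 genes with the highest r (pseudocount 1). Pathway genes named without passing, and single markers, were chosen after their values were seen. The members, lists and tests were chosen with earlier results of these data known. All 7 receptors matched RefSeq by accession. One marker gene is not reported here, and the sum of its list leaves it out. The motifs were chosen after the receptors that rose were known.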

Additional observations from a re-analysis of the deposited data

Results flagged for a closer look

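In P28 sample 135, Tlr8 had 26.7 scaled counts, against 9.47 to 14.6 in the other 5 P28 samples. The gap to its nearest neighbour took 0.704 of the range of the 6 samples, above Dixon's 95% critical value of 0.625. The raw count of 28 lay just above the lane threshold of 26.1, and Tlr8 was under the threshold in the other 11 samples. In all, 18 groups of 6 samples were examined this way, and chance marks about 1 group in 20.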

How the results depend on the processing

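No paired analysis was possible because the ages share no replicate number. Tlr3 passed as higher in 27 of 28 alternatives, all but positive controls alone (-0.15), and Tlr9 in 9 of 28. The receptors higher and lower at P28 numbered 1 and 0 without Polr1b, with limma at either pseudocount, with negative probes subtracted, without a filter and at a false discovery rate of 0.01, 1 and 1 with TMM, with median-of-ratios size factors and with total counts, 0 and 1 with positive controls alone, and 2 and 2 without P14 samples 4 and 5. With each sample left out, 1 to 2 were higher and 0 lower. The pathway genes lower at P28 numbered 7 without Polr1b, 5 with TMM and with median-of-ratios size factors, 9 with total counts, 9 without P14 samples 4 and 5, and 2 to 5 with each sample left out; with positive controls alone 0 were higher and 8 lower. The panel genes higher and lower numbered 93 and 36 with the authors' factors, 89 and 42 with all 14 reference genes, 50 and 74 without Polr1b, 89 and 26 with limma on the authors' values, 51 and 96 with total counts, 8 and 128 with positive controls alone, 46 and 32 at a false discovery rate of 0.01 and 67 and 85 without P14 samples 4 and 5. The endosomal median was 0.30 with total counts and -0.30 with positive controls alone, where the surface median was -0.90. Signs also turned for Tlr5 (0.086 with the authors' factors, 0.045 with all 14 reference genes, 0.024 with limma at either pseudocount, 0.15 with limma on the authors' values, 0.025 with negative probes subtracted, and -0.19 to 0.030 with each sample left out, above 0 without P14 sample 16 at 0.030 or 81 at 0.014) and for Tlr4 (-0.028 without Polr1b, -0.048 with total counts, -0.69 with positive controls alone, -0.059 without P14 samples 4 and 5). With positive controls alone Tlr9 was at -0.45, Irak2 at -0.31, Irak3 at -0.20 and Rela at -0.32. Beyond the construction of these settings, the cause was not tested. The median of all genes was 0.13 with the authors' factors, 0.18 with limma on the authors' values, -0.12 without Polr1b, -0.14 with total counts and -0.74 with positive controls alone. Signal over background limits Tlr2 and Tlr8, and Sigirr, Irak3 and Ly96 among the pathway genes that passed. With negative probes subtracted, the log2 fold changes of Ly96, Irak3 and Sigirr were -0.67, 0.75 and -1.45.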
